A study of Homo sapiens with 16 samples.

Results

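The 56 genes described here were the germline, or cancer-testis, antigen genes of the count table. They were chosen by name alone, as the protein-coding genes whose symbol belongs to the MAGEA, MAGEB, MAGEC, GAGE, PAGE, XAGE, SSX, CTAG or CT45A series or is CT83, PRAME, SYCP1, DAZL, DDX4 or TDRD1, and they were 56 of 34228 genes in all. Of these, 47 lie on chromosome X. As the rule works on symbols, it also took in SSX2IP and the CTAGE genes. SSX2IP encodes a protein of the centrosome and adherens junctions that binds SSX2, and the 4 CTAGE genes are autosomal, as is PRAME. SSX2IP is therefore given apart from the antigen genes below.

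RNA-Seq was performed on 2 human melanoma cell lines with acquired BRAF inhibitor resistance, 451Lu-R (MITFhi/AXLlo) and 1205Lu-R (MITFlo/AXLhi), each derived by months of exposure to rising doses of the BRAF inhibitor PLX4032 and kept in it. Cells received 2.5 μM corin, which blocks both enzyme activities of the CoREST repressor complex (the histone deacetylases HDAC1/2 and the demethylase LSD1), or DMSO vehicle for 24 hours. The treatments of the groups compared here did not include PLX4032, which other libraries of the study received. Each of the 4 groups had 2 libraries, with 9516687 to 11797788 estimated counts per library, so that a count of 0 allowed a level of up to 0.254 to 0.315 CPM (counts scaled to the library total). Whether the 2 replicates came from separate cultures is not stated, so p-values measure only the spread between these libraries, which may be technical. The question was how an inhibitor of a repressor complex changed genes that adult body cells normally keep silent.

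Cancer-testis antigens are proteins made in the germ cells of the testis and again in many tumors, melanoma among them. Their genes are classically held silent in body cells by methylation of promoter DNA together with repressive histone marks, and several were first found as targets of T cells in patients with melanoma. MAGE proteins bind and direct RING-type ubiquitin ligases, PRAME is a substrate receptor of a cullin ubiquitin ligase, SSX proteins act on repressed chromatin, and SYCP1, DDX4 and TDRD1 serve meiosis and the germline RNA pathways.

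Most of these genes exist as near-identical copies, and the authors' software divides a read that fits several copies between them. In 30 of the 56 genes, over 50% of all 31-base words of the transcripts also occurred in a transcript of another gene, and in 21 genes over 90% did. MAGEA2 shared 97.8% of its words with its copy MAGEA2B. MAGEA3 shared 67.6% with MAGEA6. GAGE12F shared 95.7% with GAGE12G and GAGE13 shared 92.3% with GAGE12J. In contrast, PRAME shared 0.5% of its words with any other gene, SSX2IP and PAGE4 shared none, and MAGEA1 shared 7.0%. Values of PRAME and MAGEA1 are therefore values of 1 gene, while those of the GAGE, CT45A and MAGEA2 copies are given with the sum over the family.

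**Figure D1:**
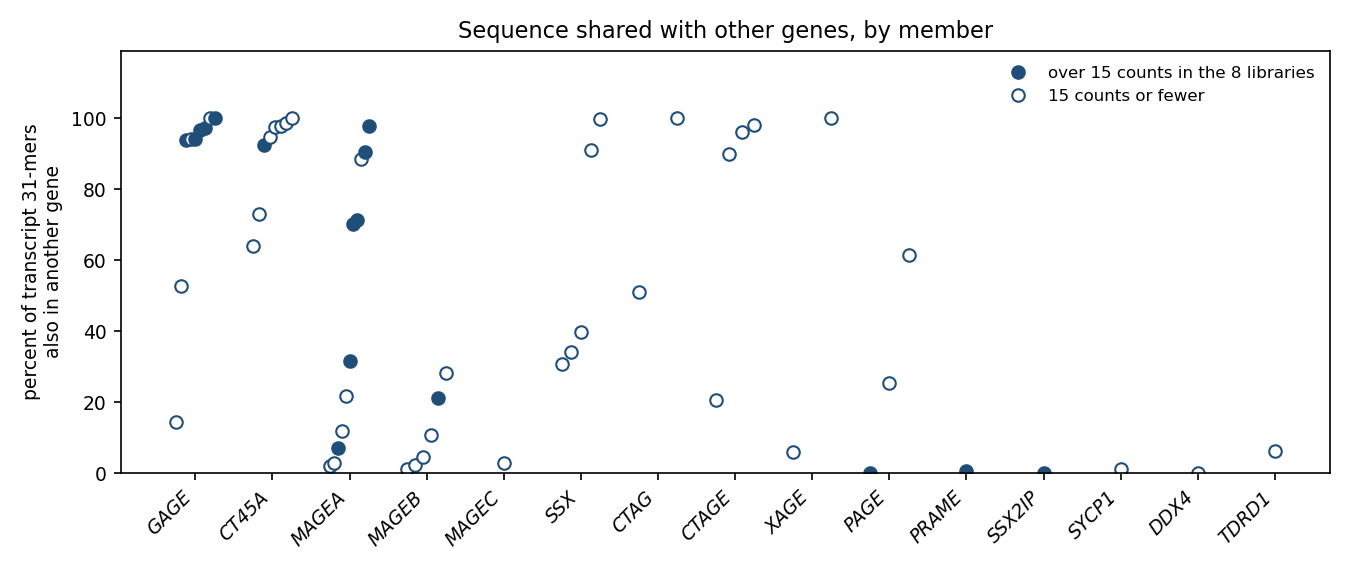
Percent of the 31-base words of each gene's transcripts that also occur in another gene, by family (1 point per gene, filled where the gene had over 15 counts in the 8 libraries). All CT45A genes and most GAGE genes lie above 50%, whereas PRAME lies at 0.5% and MAGEA1 at 7.0%.

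The promoters show the same kinship. Of the 56 genes, 43 had an entry in the RefSeq promoter table used here (GRCh38.p14, 250 bases before to 50 after the gene's start). The 250 bases before the start of MAGEA3 and MAGEA6 were identical at all 250 positions, and so were those of GAGE12F, GAGE13 and GAGE2A. Shown are the 250 bases before the start of the antigen genes that the results turn on, 5′ to 3′ on the strand of the gene, with the motif letters CCGGAA or TTCCGG (ETS-type) or TCCCGC (E2F-type) in capitals. MAGEA3 stands at chrX:152698544-152698793 (plus strand), MAGEA12 at chrX:152733507-152733756 (plus strand), GAGE13 at chrX:49331332-49331581 (plus strand), MAGEB6 at chrX:26192190-26192439 (plus strand) and PRAME at chr22:22559266-22559515 (minus strand).
MAGEA3: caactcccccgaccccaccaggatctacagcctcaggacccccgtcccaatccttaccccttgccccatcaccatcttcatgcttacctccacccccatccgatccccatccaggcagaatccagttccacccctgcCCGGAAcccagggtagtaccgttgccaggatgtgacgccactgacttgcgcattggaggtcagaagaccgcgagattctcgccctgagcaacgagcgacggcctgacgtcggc
MAGEA12: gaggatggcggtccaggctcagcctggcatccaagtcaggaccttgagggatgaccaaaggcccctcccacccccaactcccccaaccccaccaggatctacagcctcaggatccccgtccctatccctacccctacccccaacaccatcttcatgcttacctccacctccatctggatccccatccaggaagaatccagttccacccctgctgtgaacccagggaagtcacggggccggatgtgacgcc
GAGE13: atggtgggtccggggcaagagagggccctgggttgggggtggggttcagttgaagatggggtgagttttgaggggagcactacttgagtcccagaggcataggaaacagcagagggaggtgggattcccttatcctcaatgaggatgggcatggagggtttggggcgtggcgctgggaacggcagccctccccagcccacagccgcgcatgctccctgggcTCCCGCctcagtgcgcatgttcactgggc
MAGEB6: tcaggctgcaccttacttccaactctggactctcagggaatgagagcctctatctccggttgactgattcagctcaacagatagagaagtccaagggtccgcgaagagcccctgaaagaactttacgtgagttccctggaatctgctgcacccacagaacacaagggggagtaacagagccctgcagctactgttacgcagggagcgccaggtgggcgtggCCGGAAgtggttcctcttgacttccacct
PRAME: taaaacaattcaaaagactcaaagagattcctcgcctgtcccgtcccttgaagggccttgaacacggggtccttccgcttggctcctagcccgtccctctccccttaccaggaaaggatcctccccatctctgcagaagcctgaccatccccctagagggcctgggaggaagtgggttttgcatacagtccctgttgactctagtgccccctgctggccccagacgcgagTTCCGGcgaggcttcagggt

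The ETS-type letters began 113 bases before the start in MAGEA3, 29 bases before it in MAGEB6 and 20 bases before it in PRAME, and MAGEA12 held none of the letters searched. Over the whole promoter window and both strands, CCGGAA was found in 6 of the 43 promoters (14.0%, against 24.5% of 14111 promoters of protein-coding genes in the table). TCCCGC or its reverse complement GCGGGA was found in 18 (41.9%, against 37.5%). The palindromic E-box CACGTG was found in 15 (34.9%, against 9.24%), but 8 of these were GAGE genes, 7 of which held it 24 bases after the start, and outside the GAGE family 7 of 35 promoters held it. The median promoter held 13 CpG sites, against 23 for protein-coding genes, and had a CpG observed-to-expected ratio of 0.484, against 0.789. The motifs did not overlap in the sequences shown, and a match to the letters is no evidence of binding.

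Few of the 56 genes were on. In 451Lu-R with DMSO, 23 of them had any count and 12 reached a mean of 1 CPM (21.4%, against 64.3% of protein-coding genes). In 1205Lu-R with DMSO, 4 had any count and 2 reached 1 CPM (3.57%, against 64.3%), and these 2 were PRAME and SSX2IP. With corin, 40 genes (451Lu-R) and 18 genes (1205Lu-R) had any count. The number at 1 CPM or more was 12 (451Lu-R) and 2 (1205Lu-R), the same as with DMSO, while 70.4% and 70.1% of protein-coding genes reached that level with corin. Over the 8 libraries, 8 genes had 0 counts (CT45A2, CT45A6, CTAG2, CTAGE9, PAGE2B, SSX2B, SSX3 and TDRD1), 32 had 1 to 15 counts in all, and 16 had more. PRAME alone gave 77.8% and 78.0% of the summed counts of the 56 genes in the 451Lu-R DMSO libraries, and PRAME with SSX2IP gave 99.9% in each 1205Lu-R DMSO library.

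**Figure D2:**
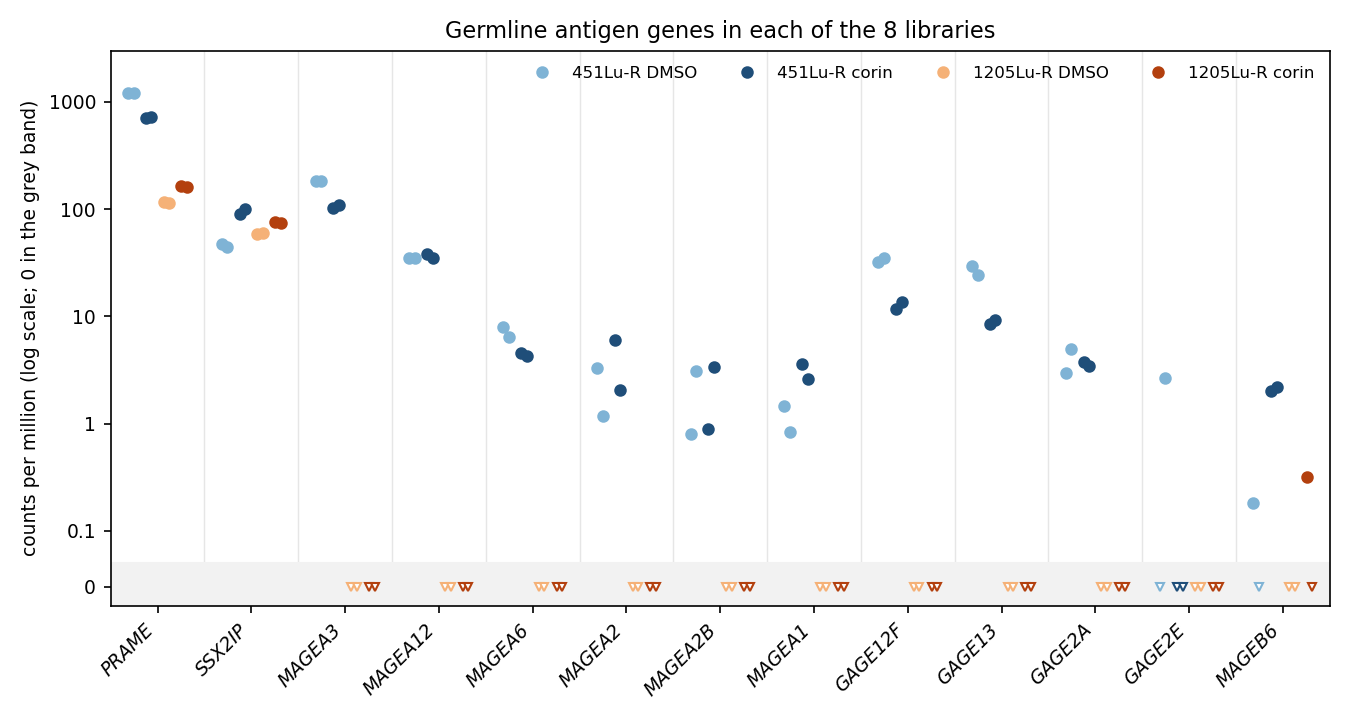
CPM of 13 genes in each of the 8 libraries, on a log scale with values of 0 in the grey band (filled circles: values above 0, open triangles: 0, 2 libraries per group). The MAGEA and GAGE genes shown were at 0 in all libraries of 1205Lu-R, while PRAME and SSX2IP had counts in every library.

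Per length, PRAME led in both lines. On a TPM-like scale (counts divided by exonic length and made to sum to the same total in every library), PRAME stood at 1264 ± 0.264 in 451Lu-R with DMSO (SD, n = 2), MAGEA3 at 410.1 ± 1.05, GAGE12F at 192.5 ± 9.95, GAGE13 at 191.8 ± 25.9, MAGEA12 at 71.1 ± 0.211, GAGE2A at 28.0 ± 9.86, SSX2IP at 21.3 ± 1.11 and MAGEA6 at 15.7 ± 2.50. GAGE12F and GAGE13 did not differ beyond their spread, and nor did GAGE2A and SSX2IP. In 1205Lu-R with DMSO the same scale gave 134.6 ± 1.67 for PRAME and 30.7 ± 0.678 for SSX2IP.

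PRAME, on the minus strand of chromosome 22 (chr22:22547701-22559361, GRCh38), was the most abundant antigen gene and moved in opposite directions in the 2 lines. The 451Lu-R libraries held 13159 and 11703 counts under DMSO and 8375 and 7195 after corin (1207 and 1211 CPM against 709.9 and 719.4 CPM). The 1205Lu-R libraries held 1298 and 1221 counts under DMSO and 1569 and 1778 after corin (117.3 and 115.0 CPM against 164.9 and 160.0 CPM). Corin thus stood below DMSO in every 451Lu-R library and above it in every 1205Lu-R library, with no overlap between groups. In 451Lu-R PRAME fell by 0.66 (log2) (SE 0.019, edgeR adjusted p = 5.18e-17), and in 1205Lu-R it rose by 0.41 (SE 0.038, edgeR adjusted p = 1.90e-09). The responses differed by 1.03 (SE 0.048, edgeR adjusted p = 1.01e-13). A gene on the opposite strand overlaps PRAME in the annotation, and whether the counting used strand is not given in the sources used here.

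PRAME, MAGEA3, GAGE12F and GAGE13, the 4 antigen genes highest per length in 451Lu-R with DMSO, fell under corin. MAGEA12 (71.1 on the TPM-like scale) and GAGE2A (28.0), the next in level, were not called, while the lower MAGEA6 (15.7) fell. The antigen genes that rose had few reads with DMSO. Level and change share the same DMSO libraries, so no link between them is read from this order. Of the 56 genes, 12 passed the filter on low counts, and 4 of these rose (41.3% of the 14530 genes tested did) and 5 fell (38.6% did), with a median log2 change of 0.0844 over the 12 against 0.0322 over all genes tested. The 4 that rose were MAGEA1, MAGEA2, MAGEB6 and SSX2IP, the last of which is not an antigen gene. Genes that passed only through their level with corin, as MAGEA1 and MAGEB6 did, had to be higher there. These counts therefore describe the 12 and not the 56. Of all genes tested, 12.4% rose and 2.72% fell by 4-fold or more with an adjusted p under 0.001. Of the 12, 1 rose that far, MAGEB6, and none fell that far. In bulk RNA, fewer cells that express a gene and less RNA of it per cell cannot be told apart.

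**Figure D3:**
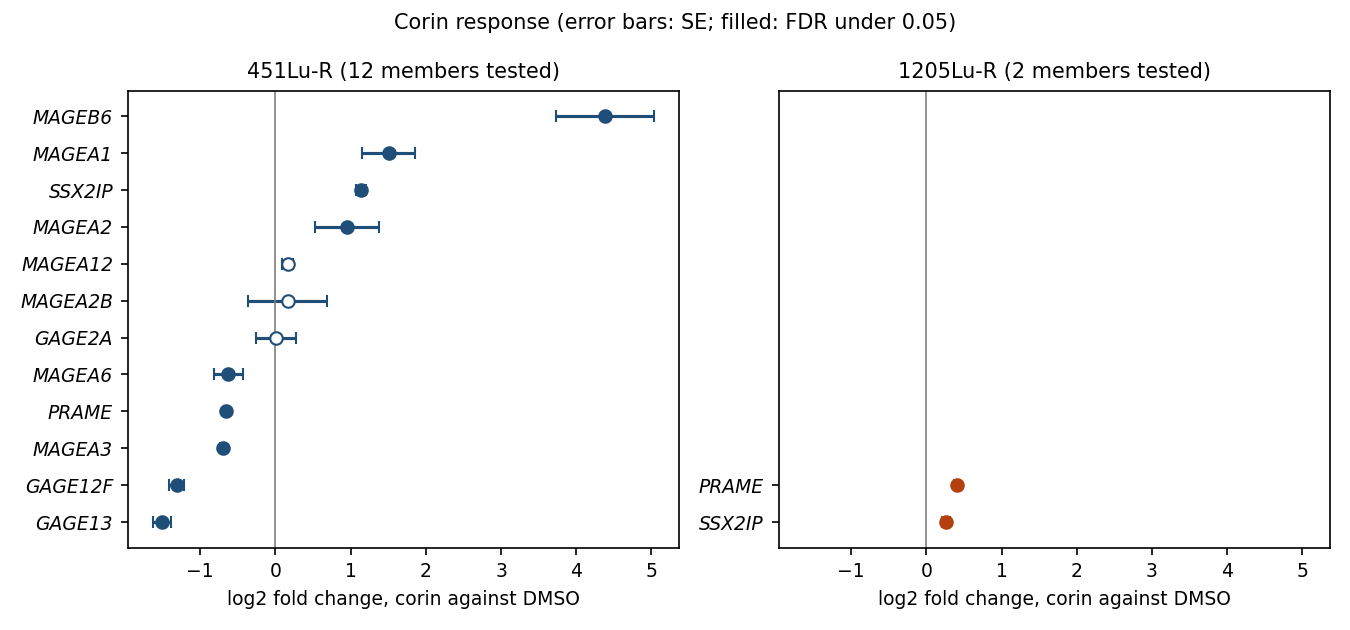
Log2 fold change of corin against DMSO for the genes that passed the filter, 12 in 451Lu-R (left) and 2 in 1205Lu-R (right), with the SE as error bars and filled points for an edgeR adjusted p under 0.05. GAGE13 (-1.51) and MAGEB6 (4.38) mark the ends of the range in 451Lu-R, and PRAME lies left of 0 in 451Lu-R and right of 0 in 1205Lu-R.

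The MAGEA family, whose best expressed copies lie within 71.0 kb of chromosome X (chrX:152698767-152769716), gave fewer reads in 451Lu-R with corin. Its 11 genes summed to 2525 and 2218 counts under DMSO and to 1853 and 1575 after corin (231.6 and 229.5 CPM against 157.1 and 157.5 CPM). The groups did not overlap, and the sum fell by 0.45 on the log2 scale (SE 0.031, edgeR adjusted p = 6.27e-11). MAGEA3, the main contributor, had 1993 and 1766 counts under DMSO and 1212 and 1088 after corin, and fell by 0.69 (SE 0.038, edgeR adjusted p = 1.73e-12). Its near copy MAGEA6 had 88 and 62 counts against 54 and 42, and fell by 0.63 (SE 0.20, edgeR adjusted p = 0.0066). The call for MAGEA6 was lost with DESeq2 (adjusted p = 0.12) and without DMSO replicate 1 (edgeR adjusted p = 0.117). MAGEA3 held 95.8% to 96.6% of the reads of the pair in every library, and the pair summed to 2081 and 1828 counts under DMSO and to 1266 and 1130 after corin (-0.69, SE 0.037).

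MAGEA12, which lies between these 2 copies, did not share the fall. It had 381 and 341 counts under DMSO and 449 and 351 after corin (35.0 and 35.2 CPM against 38.1 and 35.1 CPM), so the groups overlapped. Its log2 change was 0.16 (SE 0.075, edgeR adjusted p = 0.0548), and it stood past the threshold, with changes of 0.17 to 0.22, in 4 alternative fits (RLE size factors, a minimum mean of 1 CPM, all libraries in 1 fit, and without corin replicate 2). MAGEA12 overlaps another gene on the same strand in the annotation.

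MAGEA1, the founding MAGE antigen and nearly free of shared sequence, rose. It had 16 and 8 counts under DMSO and 42 and 26 after corin, with no overlap, and its log2 change was 1.51 (SE 0.36, edgeR adjusted p = 0.00073). DMSO replicate 2 was too low for the filter, so MAGEA1 passed only with its corin libraries. The p therefore adds no support to these counts. MAGEA2 and MAGEA2B could not be told apart reliably. MAGEA2 took 80.3% of the reads of the pair in DMSO replicate 1 but 27.4% in replicate 2, and 87.1% and 38.0% in the corin replicates. Its own counts were 36 and 11 under DMSO and 71 and 20 after corin, and its log2 change of 0.96 (SE 0.42, edgeR adjusted p = 0.045) went to -0.07 without corin replicate 1 and lost its call without DMSO replicate 2 (0.41), with library size as the scaling (0.86), with all 8 libraries in 1 fit (0.98) and with DESeq2 (0.97). MAGEA2B had 9 and 30 counts against 10 and 33 (0.16, SE 0.53, edgeR adjusted p = 0.788), and ranged from -1.07 without corin replicate 2 to 1.36 without DMSO replicate 2, where alone among these fits it was called (edgeR adjusted p = 0.0434). The pair, summed, had 45 and 41 counts under DMSO and 81 and 54 after corin, with no overlap, and rose by 0.66 (SE 0.21, edgeR adjusted p = 0.0068).

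The GAGE genes, which lie on the short arm of chromosome X and encode small, highly similar proteins, included the largest falls among the 12 genes. The 9 genes summed to 711 and 660 counts under DMSO and to 288 and 273 after corin in 451Lu-R (65.2 and 68.3 CPM against 24.4 and 27.3 CPM). The groups did not overlap, and the sum fell by 1.27 on the log2 scale (SE 0.074, edgeR adjusted p = 4.09e-12). GAGE12F had 352 and 336 counts against 137 and 137, and fell by 1.31 (SE 0.10, edgeR adjusted p = 2.74e-10). GAGE13 had 323 and 237 counts against 101 and 93, and fell by 1.51 (SE 0.12, edgeR adjusted p = 5.88e-10). GAGE2A, whose promoter was identical to theirs over the 250 bases compared, had 32 and 48 counts against 45 and 35, which overlapped (0.01, SE 0.26, edgeR adjusted p = 0.979). It shared 93.8% of its words with other genes, and its change ran from -0.35 to 0.41 with single libraries left out. As reads are split between these copies, the values cannot show that the copies responded differently. GAGE2E had 0 and 26 counts with DMSO and 0 in both corin libraries, so that the replicates of 1 group differed as much as the groups did. No GAGE gene had a count in 1205Lu-R under either treatment.

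**Figure D4:**
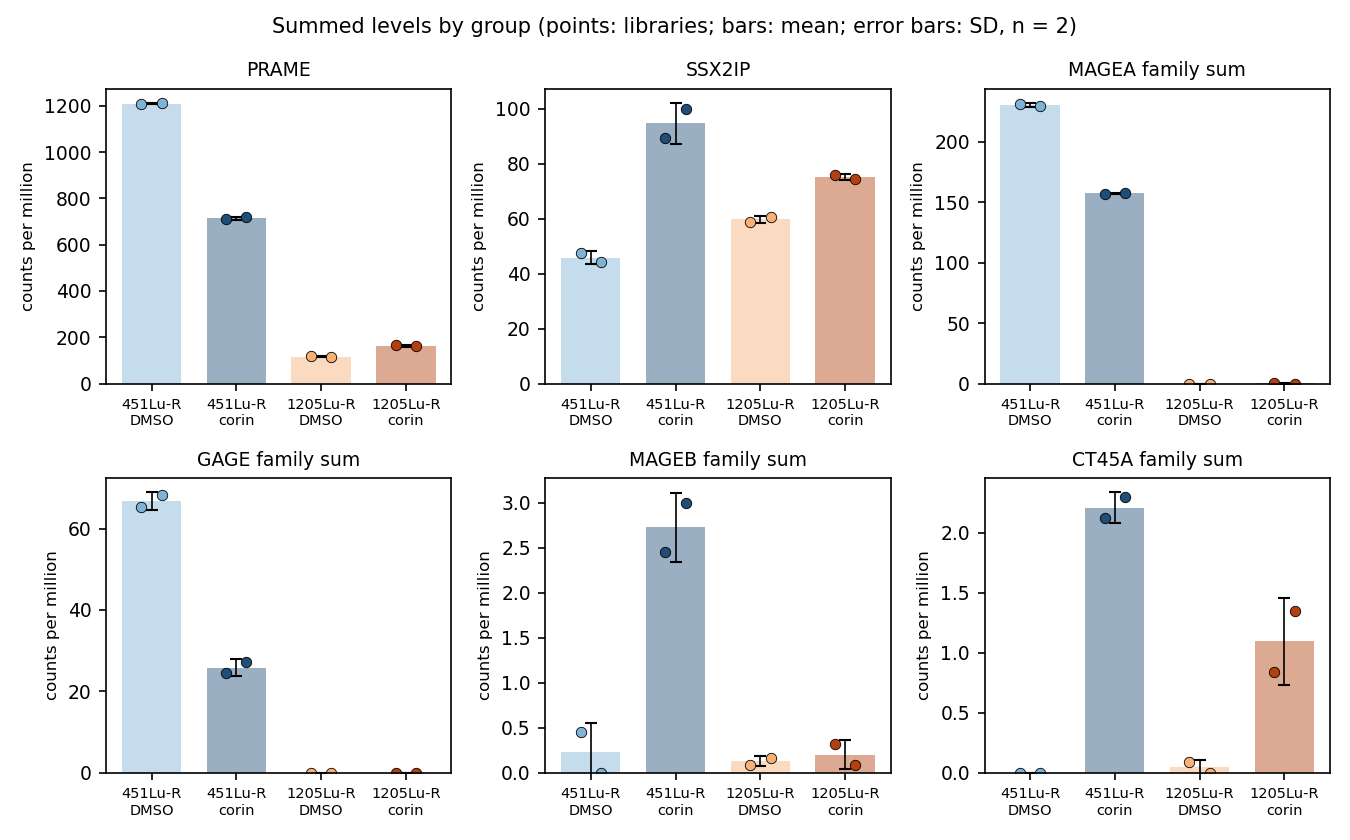
CPM by group for PRAME, SSX2IP and 4 family sums (points: libraries, bars: mean, error bars: SD, n = 2). In 451Lu-R the PRAME, MAGEA and GAGE bars are lower with corin and the MAGEB and CT45A bars are higher. In 1205Lu-R the MAGEA sum is at most 0.105 CPM and the GAGE sum is 0.

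Some genes with few or no reads in 451Lu-R gained reads with corin. MAGEB6, a MAGE gene of the short arm of chromosome X (chrX:26192440-26195646), had 2 and 0 counts under DMSO and 24 and 22 after corin in 451Lu-R, a ratio of 21.7 (95% exact counting interval 5.68 to 185), and its fitted log2 change was 4.38 (SE 0.65, edgeR adjusted p = 4.53e-06). All its DMSO counts came from replicate 1, and the fitted change was 7.51 without that library and 3.54 without DMSO replicate 2. The gene passed the filter through the corin libraries alone, so a higher value there was fixed by the filter and the p adds no support to the counts. In 1205Lu-R it had 0 and 0 counts under DMSO and 3 and 0 after corin. The 6 MAGEB genes summed to 5 and 0 counts under DMSO and to 29 and 30 after corin in 451Lu-R (ratio 11.2, 95% exact counting interval 4.51 to 35.5), with a fitted log2 change of 3.52 (SE 0.57), which was 7.87 without DMSO replicate 1 and 2.63 without DMSO replicate 2. This sum, too, passed the filter only through corin. In 1205Lu-R the same sum was 1 and 2 counts under DMSO and 3 and 1 after corin (ratio 1.52, interval 0.237 to 9.57). The MAGEB responses of the lines differed by -3.17 (SE 1.55, edgeR adjusted p = 0.0983), which missed the threshold. Without 451Lu-R DMSO replicate 1, the library that held all DMSO counts of the family in that line, they differed by -7.53. Here too the sum passed the filter only through 451Lu-R corin, which favored a negative value, so nothing is read from these differences.

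The CT45A family, 8 genes of the long arm of chromosome X that share much of their sequence, gained reads in both lines. Its sum went from 0 and 0 counts with DMSO to 25 and 23 with corin in 451Lu-R, which is at least 15.1-fold higher against a floor of 3 counts over both DMSO libraries. The sum passed the filter through the corin libraries alone, so its test is not given. In 1205Lu-R it went from 1 and 0 counts to 8 and 15, a ratio of 24.2 (95% exact counting interval 3.93 to 996), and was too low to pass the filter for a test. This ratio divides by 1 count and the bound in 451Lu-R by a floor of 3, so the lines are not ranked by them. The groups did not overlap in either line, but the level with corin was only 2.21 ± 0.128 CPM in 451Lu-R and 1.10 ± 0.36 CPM in 1205Lu-R (SD, n = 2). The split between the copies was unstable, with CT45A3 at 11 and 0 counts and CT45A1 at 0 and 7 counts in the 2 corin libraries of 451Lu-R.

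Gains of reads were also counted over all silent genes. In 451Lu-R, 42 of the 56 genes had 3 counts or fewer over both DMSO libraries, and 4 of these reached 10 counts over both corin libraries (9.52%), against 21.8% of 4823 silent protein-coding genes and 20.8% of 226 silent genes of chromosome X outside the set. The 4 were MAGEB6, PAGE4 (0 and 0 counts, then 13 and 1), MAGEA4 (0 and 0, then 7 and 5) and CT45A3. PAGE4 and CT45A3 rested on corin replicate 1. In 1205Lu-R, 1 of 54 silent genes did, CT45A1 (0 and 0 counts, then 5 and 7), which is 1.85% against 16% of 4841 silent protein-coding genes and 10.9% of 230 silent genes of chromosome X. These shares carry no test, since copies of 1 family share reads. A threshold per gene can also miss a family whose reads are split between copies. The CT45A sum went from 0 and 0 to 25 and 23 counts in 451Lu-R, yet of its copies only CT45A3 reached 10. The lower shares therefore do not show that antigen genes gained reads less often than other silent genes.

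**Figure D5:**
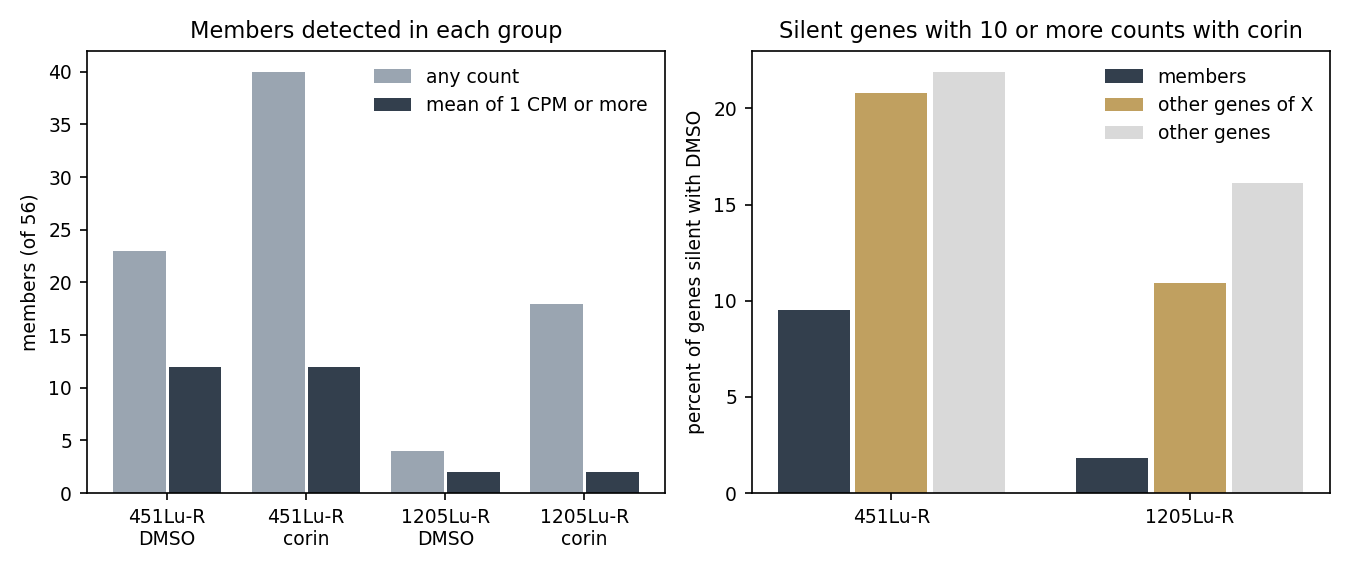
Left, number of the 56 genes with any count, or with a mean of 1 CPM or more, in each group. Right, percent of genes with 3 counts or fewer over both DMSO libraries that reached 10 counts or more over both corin libraries: the antigen genes stood at 9.52% in 451Lu-R and 1.85% in 1205Lu-R, beside other genes of chromosome X (20.8% and 10.9%) and other protein-coding genes (21.9% and 16.1%). Reads split between copies can keep an antigen gene under 10 counts.

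In 1205Lu-R, 2 of the 56 genes passed the filter, PRAME and SSX2IP, and both rose (40.4% of the 14563 genes tested rose and 37.8% fell). As both were higher, edgeR and DESeq2 called 0 lower, with 0 also at an unadjusted p under 0.05. None rose or fell by 4-fold or more with an adjusted p under 0.001, against 11.3% and 1.43% of the genes tested. SSX2IP, which is expressed in many cell types, had 517 and 427 counts under DMSO and 1055 and 999 after corin in 451Lu-R, and 651 and 643 against 723 and 827 in 1205Lu-R. Its log2 level rose by 1.14 in 451Lu-R (SE 0.063, edgeR adjusted p = 1.84e-12) and by 0.26 in 1205Lu-R (SE 0.051, edgeR adjusted p = 8.94e-05), with no overlap in either line.

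The lines differed before corin. With DMSO, 10 of the 12 genes that passed the filter were lower in 1205Lu-R than in 451Lu-R (37.2% of the 16062 genes tested were) and 1, SSX2IP, was higher (38.2% were). All 10 were lower by 4-fold or more with an adjusted p under 0.001 (9.35% of the genes tested were) and none was higher by as much (9.38%). As 9 of the 10 had 0 counts in every 1205Lu-R library, they passed the filter through 451Lu-R alone and could only be lower in 1205Lu-R, so nothing is read from these counts against the shares over all genes. PRAME was lower by 3.26 on the log2 scale (SE 0.029, edgeR adjusted p = 3.34e-27). For the other 9, all MAGEA or GAGE genes, 451Lu-R was at least 8.44-fold (MAGEA1) to at least 1321-fold higher (MAGEA3) against a floor of 3 counts over both libraries. On the same scale, 451Lu-R was at least 254-fold higher for MAGEA12, 52.6-fold for MAGEA6, 482-fold for the GAGE sum and 1667-fold for the MAGEA sum. MAGEB6 did not pass the test, and SSX2IP was higher in 1205Lu-R by 0.50 (SE 0.065, edgeR adjusted p = 4.06e-07).

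In the test of the difference between the responses, PRAME was the 1 gene called higher in 1205Lu-R and SSX2IP the 1 called lower (-0.92, SE 0.084, edgeR adjusted p = 6.76e-09), where 22.6% and 27.1% of the 16062 genes tested were called. Neither reached a 4-fold difference, which 2.43% (higher) and 3.13% (lower) of the genes tested did with an adjusted p under 0.001. For the 9 genes at 0 in 1205Lu-R this contrast has no information. With library size as the scaling, the median of all genes moved by 0.209 on the log2 scale and the split over all genes went from 3625 higher and 4359 lower to 5344 higher and 3003 lower. Under that scaling PRAME was at 1.24 and SSX2IP at -0.71, so the directions held.

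Germline genes outside these families went both ways. Of 77 such genes listed for meiosis, the piRNA pathway and sperm, 66 were in the table. In 451Lu-R 8 of the 19 tested rose and 8 fell (41.3% and 38.6% of all genes tested did), and in 1205Lu-R 12 of the 20 tested rose and 5 fell (40.4% and 37.8%). TEX19, a germline gene that restrains retrotransposons, was at 0.55 and 1.14 CPM under DMSO and 37.4 and 34.9 CPM after corin in 451Lu-R, and at 1.18 and 0.847 CPM against 23.8 and 24.9 CPM in 1205Lu-R. It rose by 5.53 in 451Lu-R (SE 0.18, edgeR adjusted p = 4.14e-16) and by 4.50 in 1205Lu-R (SE 0.19, edgeR adjusted p = 2.20e-15). TEX15, a factor of germline transposon silencing, rose by 3.53 and 3.10. TDRD9, a helicase of the piRNA pathway and kin to the silent TDRD1, rose by 4.61 in 451Lu-R, from 0.459 and 0.207 CPM to 8.82 and 7.20 CPM, and was at 0 in 1205Lu-R. ROPN1B, a sperm tail protein, fell by 1.165 in 451Lu-R and rose by 3.37 in 1205Lu-R, there from 0.283 and 0.445 CPM to 4.27 and 3.92 CPM. Those that fell most were PBK (-2.07), ROPN1 (-1.93) and KIF2C (-1.76) in 451Lu-R and ATAD2 (-0.83), PBK (-0.72) and OIP5 (-0.57) in 1205Lu-R. PBK, KIF2C and OIP5 are also mitosis genes of any dividing cell.

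Regulators of germline genes were listed too, most of them repressors, with genes of the CoREST complex and a few factors that oppose silencing (the TET enzymes and CTCFL). Of 37 listed, 11 rose and 19 fell among 36 tested in 451Lu-R (41.3% and 38.6% of all genes tested did), and 12 rose and 16 fell among 35 tested in 1205Lu-R (40.4% and 37.8%). The maintenance DNA methyltransferase DNMT1 fell by 0.72 and 0.49 in 451Lu-R and 1205Lu-R, its partner UHRF1 fell by 2.12 and 1.33, and DNMT3A fell by 1.07 and 0.78. UHRF1 was at 52.9 and 48.5 CPM under DMSO and 11.2 and 10.5 CPM after corin in 451Lu-R, and at 214.3 and 215.7 CPM against 91.0 and 88.6 CPM in 1205Lu-R. DNMT3B rose by 1.53 in 1205Lu-R, and its change in 451Lu-R was 0.29 (edgeR adjusted p = 0.0727). Of the E2F6-MGA repressor complex, which binds germline promoters, L3MBTL2 fell by 1.47 and 1.74, PCGF6 fell by 1.22 and 1.35, E2F6 rose by 0.48 and 0.40, and MGA fell by 0.41 in 451Lu-R (in 1205Lu-R -0.17, edgeR adjusted p = 0.0924). The histone methyltransferase SETDB1 fell by 1.23 and 0.75 (451Lu-R, then 1205Lu-R), and its partner ATF7IP rose by 1.07 and 0.65. With the lines in the same order, the Polycomb partner RYBP rose by 1.68 and 0.72, and the methylcytosine dioxygenase TET2 fell by 0.89 and 1.42. Among the genes of the CoREST complex, KDM1A (LSD1) rose by 0.38 and 0.46, HDAC2 by 0.35 and 0.34, and the scaffold RCOR1 by 0.82 and 0.97, while HDAC1 rose by 0.53 in 451Lu-R and was at -0.09 in 1205Lu-R (edgeR adjusted p = 0.0573). RCOR2, a paralog of RCOR1, rose by 5.29 and 3.46.

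Cell identity markers moved beside these genes. With DMSO, 11 of 12 melanocytic markers reached 1 CPM in 451Lu-R and 1 of 12 did in 1205Lu-R, with SOX10 and TYR at 0 in the latter. Under corin 9 of the 11 tested fell in 451Lu-R, 1 rose, and the summed level went from 13760 and 13840 CPM to 11580 and 11610 CPM. In 1205Lu-R the 2 tested, MITF (1.05) and PMEL (1.46), rose, and the summed level went from 8.92 and 7.91 CPM to 20.1 and 18.6 CPM. Of 12 invasive markers, 10 of 11 tested rose in 451Lu-R, while 4 rose and 7 fell in 1205Lu-R. Of 18 markers of other cell types, 16 were in the table, and their summed level was 104.7 and 106.0 CPM under DMSO and 179.0 and 183.6 CPM after corin in 451Lu-R, and 336.0 and 330.6 CPM against 317.5 and 297.8 CPM in 1205Lu-R. In 451Lu-R 7 of the 8 tested rose and 1 fell, and in 1205Lu-R 4 of 7 rose and 2 fell. With DMSO, EPCAM, KRT5, COL3A1, DES and ALB were at 0 in both lines, and with corin DES, a muscle filament gene, had a mean of 4.94 CPM in 451Lu-R and 4.90 CPM in 1205Lu-R. Others were abundant with DMSO, with mean levels of 66.0 CPM for CD68 in 451Lu-R and of 195.7 CPM for PDGFRA and 103.3 CPM for KRT18 in 1205Lu-R. The part of these shifts in the antigen results was not tested.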

How the data were processed

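Per the labels and the study's methods, polyadenylated RNA of 451Lu-R and 1205Lu-R cells was sequenced on an Illumina NextSeq, reads were trimmed with trimmomatic, and the authors quantified them with salmon against GENCODE v32. Versions are not given in the sources used here. The deposited values used here were estimated counts per gene in 8 of the 16 libraries. For the other 8, with PLX4032, the deposited tables used here held only the authors' own DESeq2 comparisons, which were not used, and their counts were not analysed here.

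Counts were rounded and tested with edgeR 4.0.16 in R 4.3.3 (TMM, filterByExpr, quasi-likelihood F test, 2-sided, Benjamini-Hochberg over all genes tested, threshold 0.05). Each corin comparison used the 4 libraries of 1 line, and comparisons between lines used all 8. The SE is the log2 change divided by the root of F. CPM are scaled to the library total. Genes were matched by ID to GENCODE 44 (34052 of 34228), which gave symbols, positions, exonic lengths and shared 31-base words. DESeq2 1.42.0, other scalings, filters, a replicate block, single libraries left out and summed paralogs were alternatives. The edgeR fit was tested on simulated data.

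The 56 genes and the gene lists were chosen with earlier results of these data known. Named were those with a group mean of at least 1 CPM or past 4-fold with adjusted p under 0.001, at most 3 near-identical copies per family, and up to 3 genes per list and direction, besides 11 regulators named whatever their values. MAGEA2B, GAGE2E, MAGEA4, PAGE4, CT45A1, CT45A3 and the genes with single counts were named after their values were seen. The chi-square between the counts of 2 replicates, divided by its degrees of freedom, was 1.34 to 1.41. Intervals and floors cover counting error only.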

Additional observations from a re-analysis of the deposited data

Results flagged for a closer look

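The log2 corin response (1205Lu-R minus 451Lu-R, edgeR interaction test) differed between the lines for PRAME (1.03, lower with corin in both 451Lu-R libraries and higher in both 1205Lu-R libraries) and for SSX2IP (-0.92, higher with corin in every library of both lines). These are values of 2 lines and carry no explanation here.

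The same test separated the lines for named regulators: DNMT1 (0.19), DNMT3B (1.20), UHRF1 (0.75) and SETDB1 (0.44) had the higher response (not level) in 1205Lu-R, and TET2 (-0.57), ATF7IP (-0.46), RYBP (-1.004), HDAC1 (-0.67) and RCOR2 (-1.87) had the lower response. In all, 8 of the 36 regulators tested were called higher and 7 lower (22.6% and 27.1% of all genes tested were). Among the other germline genes it separated ROPN1 (2.14), ROPN1B (4.50), PBK (1.32), KIF2C (1.61) and OIP5 (0.76), with the higher response in 1205Lu-R, and TEX19 (-1.07) and ATAD2 (-0.29), with the lower. These are the genes the naming rule gave, and of the 22 tested 8 were called higher and 4 lower, among them SYCE2 (2.73), CEP55 (1.45), TTK (0.84), STAG3 (-2.94) and SPAG9 (-0.75), named after their values were seen. The edgeR adjusted p of the genes given here ran from 2.37e-14 for KIF2C to 0.0461 for TEX19.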

How the results depend on the processing

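With 4-fold and an adjusted p under 0.001 as the threshold, 1 of the 56 genes was higher and 0 lower with corin in 451Lu-R, 0 were higher in 1205Lu-R, 0 were higher in 1205Lu-R against 451Lu-R with DMSO, and 0 differed in response in either direction. With families summed, 3 of 6 families or genes tested were higher and 3 lower in 451Lu-R with corin (6005 and 5603 of 14524 tested). In 1205Lu-R against 451Lu-R with DMSO, 1 of 6 was higher and 3 lower (6140 and 5965 of 16056 tested). In 451Lu-R the CT45A and MAGEB sums passed the filter only through corin. Between the lines the MAGEA and GAGE sums passed only through 451Lu-R, so these directions were fixed by the filter. With both choices, added after seeing the data, 2 were higher and 0 lower in 451Lu-R, 0 were higher in 1205Lu-R, 0 higher and 3 lower in 1205Lu-R with DMSO, and 0 differed in response. With no filter, 9 of 45 tested were higher in 451Lu-R, where 23.8% of all genes tested were. Silent genes that gained counts numbered 11 of 42 in 451Lu-R at 5 counts or more (26.2%, against 32.4% of silent protein-coding genes) and 1 at 20 or more (2.38% against 14.0%), and 1 of 54 in 1205Lu-R at 5 or more (1.85% against 25.1%) and 0 at 20 or more (against 9.42%), with thresholds added after seeing the data. At each threshold, reads split between copies can keep one of the 56 genes below it. MAGEA2 ranged from -0.073 (without corin replicate 1) to 1.93 (without DMSO replicate 1). The MAGEB difference in response ranged from -7.53 to -2.29 with single libraries left out. That sum passed the filter only through 451Lu-R corin, so nothing is read from this range. DESeq2 called 3 higher and 4 lower in 451Lu-R. The cause of these changes was not tested. Leaving out single libraries gave 3 to 5 genes higher and 5 to 6 lower in 451Lu-R, and in these fits the lone library of a group is assumed to vary like the others.

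Deviations of same-numbered libraries gave a correlation of -0.0166 (451Lu-R) and -0.00317 (1205Lu-R) across 15835 genes, which shows no pairing by number. The spread between replicates was close to counting error (chi-square per degree of freedom 1.34 to 1.41), so a weak pairing could be missed. With the number as a replicate block, 4 genes were higher and 5 lower in 451Lu-R with corin, 2 higher and 0 lower in 1205Lu-R, 1 higher and 10 lower between the lines, and PRAME differed by 1.03 and SSX2IP by -0.92, so the block changed none of these calls. Depth limits genes under 3 counts a library.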

Other observations

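Of the 33 antigen genes with 0 counts in 451Lu-R with DMSO, 22 had at least 1 count with corin (66.7%, against 65.3% of 3360 protein-coding genes), and of the 23 with counts, 5 had 0 with corin (21.7%, against 2.38% of 14799: DDX4, GAGE1, GAGE2E, MAGEB10 and MAGEB17). DDX4, GAGE1, MAGEB10 and MAGEB17 had at most 2 counts in a DMSO library, and GAGE2E, whose words are all shared, had 0 and 26. Most protein-coding genes with counts stood higher (11677 reached 1 CPM), so these last shares do not compare like with like. In 1205Lu-R, 14 of 52 went from 0 to at least 1 count (26.9%, against 52.6% of 3428), and none of the 4 with counts went to 0. The corin libraries also held more genes at 1 CPM or more over the whole table, 14201 to 14427 against 12867 to 13104 with DMSO. Their totals ran from 9516687 to 11797788, and those of the DMSO libraries from 9663987 to 11066564.

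DDX4, the germ cell helicase VASA, had 1 and 2 counts in 451Lu-R with DMSO and 0 in the other 6 libraries. SYCP1, which joins paired chromosomes in meiosis, had 2 and 0 counts with corin in each line and 0 with DMSO. MAGEB2, a testis antigen tied to stress granules, had 0 and 0 counts under DMSO and 2 and 5 after corin in 451Lu-R. Each of these levels is near the floor of 3 counts.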
